A study of Caenorhabditis elegans with 2 samples.

Results

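The piRNA clusters of chromosome IV were taken as 2 intervals of the ce11 genome build, from position 4500000 to 7000000 (the left cluster) and from 13500000 to 17200000 (the right cluster). The peaks described here were those on the authors' pooled list of peaks and background regions whose summit, the position of highest signal within a peak, lay in either interval. There were 572 of them, 271 in the left cluster and 301 in the right cluster, of 1623 pooled peaks on chromosome IV and 9931 in the genome. The other 1051 peaks of chromosome IV served as the comparison. The rule used position alone and no signal value. Of 14714 annotated piRNA genes on chromosome IV, 14204 (96.5%) had their 5' end inside the 2 intervals, so the intervals held what their name says.

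The measurements came from chromatin immunoprecipitation followed by sequencing (ChIP-seq), which maps where a protein sits on DNA. The protein was NHR-11, one of the many nuclear hormone receptors (transcription factors) of worms, tagged with the fluorescent protein eGFP. The tagged gene was carried as the insertion wgIs305 by the Caenorhabditis elegans strain OP305, which also carries unc-119(ed3) on chromosome III, and the labels name nhr-11 as the antibody's target. Both biological replicates were whole late embryos of pooled males and females and formed a single group, so there was no second condition. The control experiment that the labels point to was not analysed here. Comparisons between parts of the chromosome are therefore descriptions: a peak is not a replicate, no test was run between regions, and intervals cover counting error only.

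piRNAs are short RNAs bound by a PIWI-family Argonaute protein, PRG-1 in this worm, that silence foreign and repetitive sequences in the germline. In C. elegans most of them come from a very large number of tiny genes, each with its own small promoter, packed into the intergenic and intronic sequence of chromosome IV. Many of these promoters hold a conserved upstream motif, with CTGTTTCA at its core, and the clusters are bound in the germline by SNPC-4, a factor of small nuclear RNA transcription. Late embryos contain few germline cells among many somatic ones, and whole embryos were used, so fewer bound cells and less binding per cell cannot be told apart.

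The strongest peaks of the clusters lay on sequences of varied kinds. Of the 572 members, 6 (1.05%) were in the authors' list of reproducible (thresholded) peaks. The share was 0.951% on the rest of chromosome IV and 1.02% of all pooled peaks. The 100 strongest pooled peaks likewise held 6 members, and 10 peaks of the rest were in each list, so this count largely restates pooled signal. Shown are each of these 6 summits with 50 bases on either side, plus strand of ce11, read from the RefSeq WBcel235 genome; capitals mark stretches made of GAGAGA or its reverse complement TCTCTC.
Peak near 21ur-11572, chrIV:14606645-14606745: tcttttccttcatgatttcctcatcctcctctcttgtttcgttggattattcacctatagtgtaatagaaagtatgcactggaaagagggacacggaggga
Peak near zip-7, chrIV:16498143-16498243: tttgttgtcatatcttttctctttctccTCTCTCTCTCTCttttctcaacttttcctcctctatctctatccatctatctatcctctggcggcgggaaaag
Peak at Y17G9B.5, chrIV:4750010-4750110: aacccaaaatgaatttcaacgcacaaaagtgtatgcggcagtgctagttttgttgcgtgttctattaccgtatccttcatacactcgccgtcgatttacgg
Peak near hil-7, chrIV:6648895-6648995: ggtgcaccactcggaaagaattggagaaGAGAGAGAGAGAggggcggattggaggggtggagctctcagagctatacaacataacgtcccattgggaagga
Peak at srd-10, chrIV:13575690-13575790: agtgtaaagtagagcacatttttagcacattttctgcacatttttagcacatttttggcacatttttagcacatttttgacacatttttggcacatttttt
Peak at mir-52, chrIV:14033994-14034094: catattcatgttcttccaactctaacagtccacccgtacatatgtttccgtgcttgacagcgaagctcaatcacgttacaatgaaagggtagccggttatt
GAGAGA stretches stood within 50 bp of 2 of these summits, and of 6.47% of the summits of all members. The srd-10 sequence was a run of short tandem repeats. None of the 6 peaks held the 5' end of a piRNA gene, and neither did 50.7% of all members.

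The strongest member (14606517 to 14606872) was intergenic and lay 247 bp upstream of the piRNA gene 21ur-11572. Its nearest protein-coding 5' end was that of dmd-6, a DM-domain transcription factor gene, 9908 bp away. Signal, here and below, is the authors' value per peak in the unit of their caller. This peak had a signal of 34.7 in replicate 1, 37.6 in replicate 2 and 72.1 in the pooled list, where it ranked 27. It was the only member with a false discovery rate (the authors' expected share of false peaks at that strength) of at most 0.05; its rate was 0.0189. That is 1 of 572 members, where the share was 0.190% on the rest of chromosome IV and 0.302% over the pooled list. The other thresholded members had rates of 0.0877 to 0.121.

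The second (16498015 to 16498370), intergenic, with the bZIP factor gene zip-7 starting 7489 bp away, had 21.7 in replicate 1 and 37.9 in replicate 2. It was uneven, ranking 1460 in replicate 1 and 36 in replicate 2. The third (4749882 to 4750237), 180 bp upstream of the protein-coding gene Y17G9B.5, had 41.2 in replicate 1 and 21.2 in replicate 2. The fourth (6648767 to 6649122), 54 bp upstream of the noncoding RNA gene C01B10.49 and 2633 bp from the start of hil-7, a linker histone gene, had 37.6 and 22.1 in replicates 1 and 2. These last 2 were higher in replicate 1, whereas the zip-7 site was higher in replicate 2. The fifth (13575562 to 13575917) lay in an intron of srd-10, a chemoreceptor gene, 707 bp downstream of its 5' end, with 31.3 in replicate 1 and 23.0 in replicate 2. BLAST found 12 further genomic copies of parts of its sequence, each 50 bp or longer and at least 90% identical.

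The sixth (14033866 to 14034221) lay on mir-52, a microRNA gene of a family that acts in embryonic development. It had 30.9 in replicate 1 and 26.7 in replicate 2, and its ranks, 219 and 198, were the closest together of the 6. The summit was 36 bp downstream of the gene's 5' end, inside the mature microRNA, which is shown because the summit fell on it, as genomic DNA in ce11 with the seed (bases 2 to 8) in capitals.
mir-52 mature strand, chrIV:14034024-14034047: cACCCGTAcatatgtttccgtgct
Parts of this peak had 2 further copies elsewhere.

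The 20 strongest members had pooled signals of 41.9 to 72.1, 11 in the left and 9 in the right cluster. All 20 were overlapped by a peak of both replicates, and 17 by one of the 5000 strongest peaks of each. Over all members the shares were 60.1% and 9.09%. The 20 were chosen by pooled signal, which comes from these same replicates, so their overlap is no independent support. Of these 20, 7 lay within 1000 bp of a protein-coding 5' end and 5 held a piRNA 5' end. Over all 572 members the shares were 28.0% and 49.3%. A peak at 15471408 to 15471763 lay 91 bp upstream of ntl-11, a subunit gene of the CCR4-NOT mRNA deadenylase complex, with 23.8 in replicate 1 and 29.2 in replicate 2 (pooled 51.7). Within nbet-1, 74 bp downstream of its 5' end, was a peak at 5209397 to 5209752; nbet-1 is a vesicle-fusion SNARE gene, and the peak had 21.1 in replicate 1 and 20.4 in replicate 2 (pooled 43.0). At 16865522 to 16865877, a peak 140 bp upstream of gtsf-1, which encodes a factor of small RNA production, had 29.98 in replicate 1 but 9.45 in replicate 2, where it ranked 20309. The nbet-1 site was thus close to equal in the replicates and the gtsf-1 site was the least even of the 20.

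A peak at 5183539 to 5183894 (26.5 in replicate 1, 21.0 in replicate 2) fell in a UTR of lam-1, a laminin gene of basement membranes, 406 bp upstream of W03F8.4. Another at 6110064 to 6110419 (30.4 in replicate 1, 13.03 in replicate 2) fell in a UTR of lag-1, the DNA-binding effector of Notch signalling. The introns of soc-2, a scaffold gene of Ras signalling, held 3 of the 20, at 5139691 to 5140046 (29.9 in replicate 1, 21.2 in replicate 2), 5138407 to 5138762 (31.0 and 17.17) and 5133965 to 5134320 (17.1 and 26.8). Both of the first 2 held piRNA 5' ends, 21ur-3864 in the one and 21ur-3835 with 21ur-9624 in the other. A peak in an intron of the guanylyl cyclase gene gcy-25 (15875592 to 15875947) had 13.3 in replicate 1 and 29.2 in replicate 2, with 24 further copies elsewhere. The remaining 5 lay nearest to small RNA or noncoding RNA genes. The noncoding RNA gene B0350.73 had a peak 132 bp upstream (20.8 in replicate 1, 31.6 in replicate 2), and 21ur-5609 had one 108 bp downstream (19.0 and 25.4); both were higher in replicate 2. Peaks nearest to 21ur-4588 (22.4 and 22.2), 21ur-9498 (21.9 and 26.8) and 21ur-2278 (17.4 and 17.7) differed less between the replicates; the 21ur-9498 site had 109 further copies.

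The clusters held peaks at the density of the chromosome around them. The 572 members gave 92.3 peaks per Mb over 6.2 Mb, and the rest of chromosome IV gave 93.1, a ratio of 0.99 (95% exact interval 0.89 to 1.10). The replicate lists gave the same picture: 252 and 245 per Mb in clusters and rest in replicate 1 (ratio 1.03, interval 0.96 to 1.09), and 273 and 274 in replicate 2 (ratio 1.00, interval 0.94 to 1.06). The clusters hold 35.4% of the bases of chromosome IV, and 35.2% of its pooled peaks, 36.0% of its replicate 1 peaks and 35.4% of its replicate 2 peaks lay in them. Over the genome the pooled list had 99.04 peaks per Mb.

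The 2 clusters differed from each other. The left cluster had 108 pooled peaks per Mb (95.9 to 122) and the right cluster 81.4 (72.4 to 91.1), a ratio of 1.33 (exact interval 1.13 to 1.58). Against the rest of chromosome IV, the ratio was 1.16 (interval 1.02 to 1.33) for the left cluster and 0.87 (interval 0.77 to 0.995) for the right. That reference, at 93.1 per Mb, included the chromosome's ends. Without its first and last 0.5 Mb, a choice made after seeing the data, it had 84.7 per Mb. The right cluster's 81.4 lay closer to this value, and the left cluster's 108 lay further above it. In replicate 1 the left and right clusters had 266 and 242 per Mb (ratio 1.10, interval 0.99 to 1.22), and in replicate 2 they had 289 and 262 (ratio 1.10, interval 1.0015 to 1.22). The left cluster was thus higher in all 3 lists, by less in the single replicates than in the pool. In windows of 0.5 Mb the clusters held 26 to 68 pooled peaks (median 42, 12 windows), and the windows wholly outside held 28 to 84 (median 40.5, 22 windows), ranges that overlap almost entirely.

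**Figure D1:**
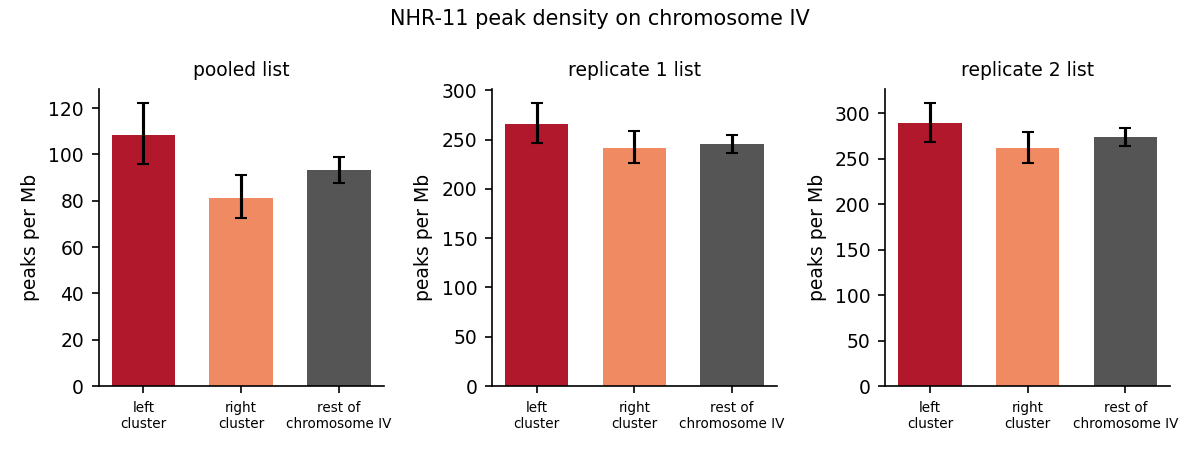
Peaks per Mb (y axis, from 0) in the left cluster, the right cluster and the rest of chromosome IV, for the pooled list and each replicate list; bars are counts over length and error bars exact 95% Poisson intervals. The left cluster is highest in each list, at 108 per Mb in the pooled one, and the right cluster lowest, at 81.4.

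Signal did not set the members apart either. Their median pooled signal was 25.6 (quartiles 23.2 and 29.6), against 25.7 (quartiles 23.4 and 29.7) on the rest of chromosome IV and 25.9 over the pooled list. The ratio of the medians was 0.995, with an order-statistic interval of 0.965 to 1.03. In replicate 1 the medians were 12.6 in the clusters and 12.8 outside them, and in replicate 2 they were 10.6 and 10.8. The left and right clusters had pooled medians of 25.7 and 25.3. The highest signal in the clusters was 72.1 and that on the rest of the chromosome 106. Of the 500 strongest pooled peaks of the genome, 23 (4.6%) were members, and of the 1000 strongest, 50 (5%), where members made up 5.76% of the whole pooled list and the clusters 6.18% of the genome. The median false discovery rate was 0.857 for members, 0.855 for the rest of chromosome IV and 0.851 over the pooled list. At such rates, most listed peaks in either region are expected to be false. Whether the regions' likeness in density, signal and support comes from such background was not tested.

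**Figure D2:**
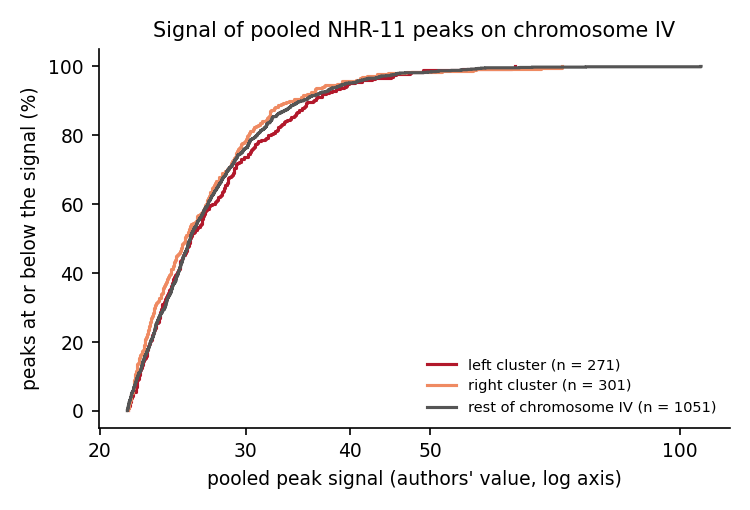
Percentage of peaks (y axis) at or below a given pooled signal (x axis, log scale) for the left cluster, the right cluster and the rest of chromosome IV. The 3 curves lie close together through their medians of 25.7, 25.3 and 25.7, and the rest of the chromosome reaches furthest right, to 106.

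Replicate support was alike in and outside the clusters. A peak of both replicate lists overlapped 344 of 572 members by at least 1 bp (60.1%, Wilson interval 56.1 to 64.1%), against 60.0% on the rest of chromosome IV and 62.2% of all pooled peaks. The difference between clusters and rest was 0.10 percentage points (interval -4.90 to 5.04). Because the replicate lists reach far into background, support was also counted against the 5000 strongest peaks of each. By this measure 52 members (9.09%, interval 7.0 to 11.7%) had support in both replicates, against 8.66% on the rest of chromosome IV and 10.2% of all pooled peaks, a difference of 0.43 points (interval -2.36 to 3.49). Replicate 1 alone overlapped 127 members, replicate 2 alone 98, and neither list 3.

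Where both replicates had a peak, their signals were only weakly related. Over the 344 members, Spearman's rho of replicate 1 and replicate 2 signal was 0.057, and over 631 peaks of the rest it was 0.070. In the left cluster rho was 0.14 and in the right cluster -0.017. The peaks entered through the pooled list, made from both replicates, and the effect of that selection on rho was not tested. The rho values are descriptions across peaks, which share the same libraries. The median log2 ratio of replicate 1 to replicate 2 was 0.12 (SD 0.59) in the clusters and 0.23 (SD 0.57) in the rest. No scaling between the replicate lists is stated.

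**Figure D3:**
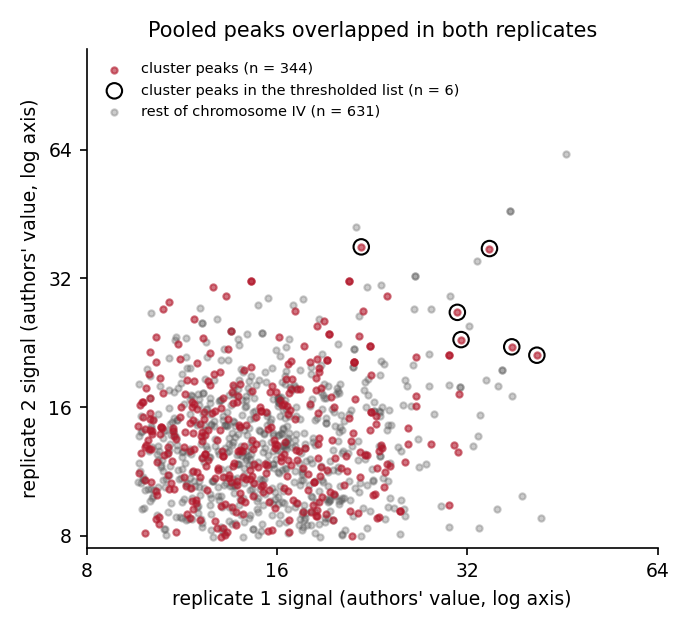
Signal in replicate 1 (x axis) against replicate 2 (y axis), both on log scales, for pooled peaks overlapped in both: 344 in the clusters and 631 on the rest of chromosome IV; circles mark the 6 cluster peaks of the thresholded list. Cluster points are spread through the same cloud as the others, and the circled 6 lie along its upper and right edges, from 21.7 to 41.2 in replicate 1.

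Within the clusters, peaks were denser where piRNA genes were denser. The intervals were cut into windows of 10 kb and grouped by their number of piRNA genes. In the left cluster, windows with 25 to 49 piRNA genes had 133 pooled peaks per Mb (interval 99.6 to 175, 39 windows) and those with 10 to 24 had 135 (111 to 164, 79 windows). Windows with 1 to 9 had 84.8 (65.7 to 108, 79 windows) and those with none 84.9 (61.9 to 114, 53 windows). In the right cluster, windows with 50 or more had 107 per Mb (82.0 to 137, 58 windows), those with 25 to 49 had 87.8 (74.98 to 102), those with 10 to 24 had 73.2 (52.5 to 99.3), those with 1 to 9 had 37.8 (20.7 to 63.5) and those with none 60 (35.6 to 94.8, 30 windows). Windows of the most piRNA genes thus had the higher densities in both clusters, while windows with none were not the lowest in the right one. Between the clusters the order was the reverse. The left cluster held 1126 piRNA genes and 108 pooled peaks per Mb, and the right cluster 3078 and 81.4. At 25 to 49 piRNA genes per window, too, the left cluster had the higher peak density.

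In the single replicates, too, the windows with most piRNA genes had the highest density in each cluster. In replicate 1, left-cluster windows with 25 to 49 piRNA genes had 379 peaks per Mb (321 to 446) and those with none 204 (167 to 246), and right-cluster windows with 50 or more had 319 (275 to 368) and those with none 200 (153 to 257). In replicate 2 the left cluster had 362 (304 to 426) and 249 (208 to 295), and the right cluster 326 (281 to 376) and 253 (200 to 317). Base composition and coding sequence moved with the number of piRNA genes. GC content was 31.6% in the left windows with 25 to 49 and 36.5% in those with none, and 29.3% in the right windows with 50 or more and 36.3% in those with none. Coding exons covered 14.4% of the left windows with 25 to 49 and 27.6% of those with none, and 6.36% of the right windows with 50 or more and 24.3% of those with none. Their part in the result was not tested.

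**Figure D4:**
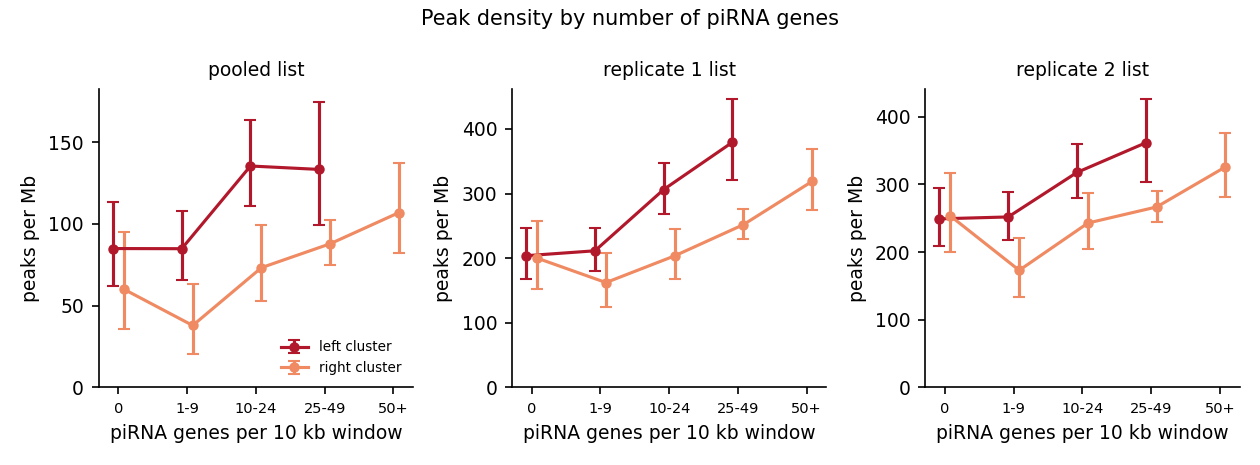
Peaks per Mb (y axis, from 0) in 10 kb windows of the left and right clusters, grouped by the number of piRNA genes per window (x axis), for the pooled list and each replicate list; error bars are exact 95% Poisson intervals. Densities are highest in the windows with most piRNA genes, 379 per Mb in the left and 319 in the right cluster in replicate 1, except that pooled left windows with 10 to 24 (135) and 25 to 49 (133) are level.

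The peaks were not centred on piRNA genes. Annotated piRNA 5' ends stood at 2.76 per kb within 200 bp of a member's summit and at 2.58 per kb between 1000 and 2000 bp from it. The clusters average 2.15 per kb when the left and right clusters are weighted by their members. The surplus near peaks therefore extended over 2000 bp on both sides, with single steps of 100 bp between 2.33 and 2.99 per kb and no step at the summit standing out.

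**Figure D5:**
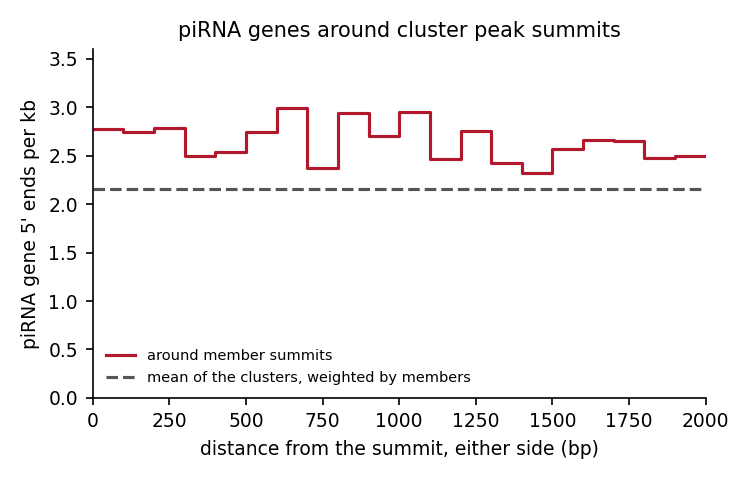
Annotated piRNA gene 5' ends per kb (y axis, from 0) by distance from the summit of a member, both sides combined in steps of 100 bp (x axis, bp); the dashed line is the mean of the clusters weighted by members, 2.15. The line stays between 2.33 and 2.99 over the whole 2000 bp, above the mean, with no maximum at the summit.

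Counted by gene, 546 of 14204 piRNA 5' ends in the clusters (3.84%, Wilson interval 3.54 to 4.17%) lay inside a pooled peak, and pooled peaks covered 3.25% of the cluster bases, a ratio of 1.18 (interval 1.09 to 1.28). The ratio was 1.35 in the left cluster and 1.22 in the right one. Both exceed the joint value: pooled peaks covered 3.80% of the bases in the left cluster and 2.88% in the right, while the left held 2816 of the piRNA genes and the right 11388. Annotated piRNA genes overlap each other, so they are not independent and these intervals are too narrow. For comparison, 39 of 941 protein-coding 5' ends in the clusters (4.14%, interval 3.05 to 5.62%) lay in a pooled peak, and on the rest of chromosome IV 106 of 2340 (4.53%, interval 3.76 to 5.45%).

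An exact CTGTTTCA upstream made no visible difference between piRNA genes. Variants of the motif were not counted, so genes without the exact sequence may still hold one. CTGTTTCA in sense, starting 30 to 60 bases before the 5' end, preceded 4931 of the 14204 genes. Of these, 3.93% (interval 3.43 to 4.51%) lay in a pooled peak, and of the 9273 genes without it, 3.80% (3.43 to 4.204%). Examples from members are shown to make the arrangement visible, in sense orientation, with the motif and the 21 bases of the piRNA in capitals; the last 3 lie in 1 peak.
21ur-9624 (minus strand), chrIV:5138734-5138799: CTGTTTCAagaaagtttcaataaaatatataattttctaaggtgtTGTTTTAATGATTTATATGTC
21ur-9498 (minus strand), chrIV:5561350-5561417: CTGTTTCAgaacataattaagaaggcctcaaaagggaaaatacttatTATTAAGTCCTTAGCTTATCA
21ur-8610 (plus strand), chrIV:16982836-16982901: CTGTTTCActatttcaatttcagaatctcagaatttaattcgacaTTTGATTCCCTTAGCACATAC
21ur-9889 (plus strand), chrIV:17188935-17189001: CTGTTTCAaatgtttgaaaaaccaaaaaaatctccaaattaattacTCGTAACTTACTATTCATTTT
21ur-2109 (minus strand), chrIV:16564215-16564282: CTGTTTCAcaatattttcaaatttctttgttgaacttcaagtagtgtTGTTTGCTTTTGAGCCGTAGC
21ur-9687 (minus strand), chrIV:16564296-16564361: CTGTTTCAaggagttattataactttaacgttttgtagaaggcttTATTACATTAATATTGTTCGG
21ur-1415 (minus strand), chrIV:16564293-16564361: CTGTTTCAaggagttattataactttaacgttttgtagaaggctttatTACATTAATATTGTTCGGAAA
21ur-9687 and 21ur-1415 share their motif and most of their bases, as neighbouring annotated piRNA genes often do.

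Around summits, CTGTTTCA on either strand stood in the central 300 bp of 151 of 572 members (26.4%, Wilson interval 23.0 to 30.2%). Windows of 300 bp tiling the clusters held it in 20.9% of cases, a difference of 5.48 points (interval 1.99 to 9.28), and windows of the same size 1000 bp to either side of the summits in 23.5% (interval 21.1 to 26.1%). In the central 100 bp the share was 8.92%, against 7.28% of tiles, a difference of 1.64 points whose interval (-0.44 to 4.27) includes 0. On the rest of chromosome IV, 2.38% of summits had the motif in their central 300 bp. GAGAGA or its reverse complement stood within 50 bp of 37 members' summits (6.47%, interval 4.73 to 8.79%). It stood in 4.55% of tiles of the same size and at 6.57% of summits on the rest of chromosome IV. Windows of that size 1000 bp to either side of the members' summits held it in 3.23% of cases (interval 2.36 to 4.43%).

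Members that held piRNA genes had no higher signal than those without. Of the 572, 282 (49.3%) held at least 1 piRNA 5' end, up to 7. The 32 members with 4 or more had a median pooled signal of 25.3 (highest 38.6), the 106 with 2 to 3 had 25.01 (highest 47.3), the 144 with 1 had 25.2 (highest 54.7) and the 290 with none had 26.0 (highest 72.1). Support by both replicate lists was 40.6% (interval 25.5 to 57.7%) with 4 or more, 60.4% (50.9 to 69.2%) with 2 to 3, 58.3% (50.2 to 66.1%) with 1 and 63.1% (57.4 to 68.5%) with none. The intervals for 4 or more and for none overlap narrowly.

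The peak with 7 piRNA 5' ends (14177495 to 14177850), in an intron of R05A10.2, had 13.54 in replicate 1 and 24.1 in replicate 2. The others of the 5 richest, with 6 each, had lower pooled signals. They were a peak in an intron of sorb-1 (13759720 to 13760075, 11.7 in replicate 1 and 16.5 in replicate 2), one on 21ur-11262 (16982551 to 16982906, 20.2 in replicate 1 and no peak in replicate 2), one beside 21ur-14774 (15487774 to 15488129, 12.9 and 11.4) and one beside 21ur-9687 (16564175 to 16564530, 9.83 in replicate 1 and none in replicate 2). Replicate 2 thus had no peak at 2 of these 5.

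By contrast, the best replicate ranks outside the 20 strongest fell on 5 members of which 3 were separate sites. A peak at 5968831 to 5969186, beside 21ur-9797, had 22.5 in replicate 1 and 19.0 in replicate 2. One at 14658143 to 14658498 lay 13 bp downstream of the 5' end of anoh-2, an anoctamin membrane protein gene, in its coding exon, with 21.5 and 23.5. One at 13605229 to 13605584, beside 21ur-12831, had 21.2 and 20.4. The other 2 overlapped the peaks at 21ur-3864 and 21ur-4588 already counted among the 20 strongest and shared their replicate peaks.

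Coding exons held fewer summits than their share of the bases, in the clusters and outside them. Coding exons held 10.7% of member summits (interval 8.39 to 13.46%) and make up 17.02% of the cluster bases; on the rest of chromosome IV they held 12.9% of summits (11.045 to 15.1%) and make up 25.7% of the bases. Intergenic sequence held 45.5% of member summits, against 43.8% of cluster bases, and 43.2% of other summits, against 31.3% of the bases there. Introns held 30.1% of member summits, against 29.7% of cluster bases, and 31.9% of other summits, against 35.3% of the bases there. UTRs held 5.77% of member summits, against 2.94% of cluster bases, and 9.71% of other summits, against 4.92% of the bases there, so UTRs held more summits than their share of bases in both regions. piRNA genes held 4.55% of member summits and make up 3.62% of cluster bases. Protein-coding 5' ends lay within 1000 bp of 28.0% of member summits (interval 24.5 to 31.8%), where 26.9% of cluster bases are that close; on the rest of the chromosome the values were 39.7% and 35.5%. GC content averaged 32.1% ± 6.0 (SD over 572 peaks) in members, against 33.0% of cluster bases, and 34.3% ± 5.77 in 1051 other peaks. Matches to other genomic places were found for 52 members (9.09%) and 88 other peaks (8.37%).

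Peaks next to the limits of the rule were ordinary in signal. At 4500000 the first peak inside, 484 bp upstream of ZK185.3, had 29.4 and the last outside, nearest to the noncoding RNA gene ZK180.17, had 25.9. At 7000000 the last inside, 61 bp upstream of the noncoding RNA gene ZK381.34, had 29.2 and the first outside, 1088 bp downstream of the 5' end of the thioredoxin reductase gene trxr-1, had 27.1. At 13500000 the first inside, near afmd-2, had 25.1 and the last outside, near Y45F10A.7, had 24.5. At 17200000 the last inside, 79 bp upstream of 21ur-9889, had 24.1 and the first outside, 77 bp upstream of 21ur-10773, had 24.9, so piRNA genes continued past that limit.

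A list of genes chosen for piRNA production or small RNA silencing was also examined, and the roles of its genes were not tested here. Of these, slfl-4 lies inside the left cluster, with its nearest pooled summit 12897 bp away, and csr-1 lies elsewhere on chromosome IV. Of 24 listed, 22 matched the annotation (prg-2 and tofu-3 did not). Of the 22, 7 (31.8%) had a pooled summit within 1000 bp of their 5' end, against 20.7% of protein-coding genes. Because the list was chosen with earlier results of these data known, the difference cannot be read as an enrichment. slfl-3, on chromosome I, whose product belongs to the nuclease complex that cuts the 5' ends of piRNA precursors, had a summit 716 bp away that was in the thresholded list (39.4 in replicate 1, 25.5 in replicate 2). The other 6 had pooled signals of 21.7 to 31.8, below that of slfl-3. erh-2 had a summit 37 bp away (14.2 in replicate 1, 17.5 in replicate 2) and tofu-7 one 113 bp away (16.5 and 9.50). trd-1, on chromosome III, whose part in these processes was not checked, had one 661 bp away with 14.9 and 9.38. unc-130, a forkhead factor gene, had one at 125 bp with a peak in replicate 1 (11.3), tofu-6 one at 239 bp in replicate 1 (20.4) and tofu-5 one at 641 bp in replicate 2 (14.9), each with no peak in the other replicate. prg-1, snpc-4 and prde-1 had their nearest pooled summit 5707, 2756 and 13566 bp away, in that order.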

How the data were processed

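The measurements are ChIP-seq peak lists of 2 libraries, labelled biological replicates 1 and 2 and put in 1 group. The authors deposited one list of peaks and background regions for each replicate, one for the pooled reads and a thresholded list, made from the replicates' alignments and a further file, per the deposited file notes. The caller, aligner and settings are unstated. Signal per peak and its q-value on the −log10 scale (false discovery rate) are as deposited, and depth is unknown.

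Genes came from the Ensembl 115 annotation, bases from the RefSeq WBcel235 genome (the build ce11). Coordinates count from 1. Densities, overlaps, distances and motif counts were computed with exact Poisson, exact conditional, Wilson and order-statistic intervals at the 95% level, and genomic copies with BLAST 2.17.0. Software was Python 3.11.15 with scipy 1.17.1, pandas 2.3.3, numpy 2.4.6 and matplotlib 3.10.9. The measures were tested on simulated data. No test between regions was run. The ce10 lists served only as an alternative, with the same limits and no conversion; the ce10 thresholded list was not used.

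Members and lists were chosen with earlier results of these data known. Genes are named for the thresholded members, the 20 strongest and the 5 with most piRNA 5' ends. They are also named for the 5 others with the best worse-of-both replicate rank and the peaks at the 4 limits. From the gene list, those with a summit within 1000 bp are named. The factors prg-1, snpc-4 and prde-1 were named outside that rule, after their values were seen. Alternatives changed the list, limits, reference, overlap, windows and motif.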

Additional observations from a re-analysis of the deposited data

How the results depend on the processing

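No paired analysis was possible because both samples belong to 1 group. Of 65 recomputed values, 61 stayed within the interval of the value reported. The density ratio, the signal ratio and both support differences crossed between higher and lower, as their reported intervals span no difference; the piRNA coverage ratio stayed above 1 and the motif difference above 0. The density ratio was 1.16 for the left cluster alone and 0.87 for the right cluster alone, and otherwise 0.97 to 1.09 over the alternatives; leaving out a replicate gave 1.00 and 1.03. The highest, 1.09, came from leaving out the chromosome ends as reference, which was chosen after seeing the data. The ratio of median signals ran from 0.979 to 1.01, without a replicate 0.985 to 0.986. The support difference ran from -2.16 to 3.49 points, and that against the strongest replicate peaks from -1.52 to 3.06. The coverage ratio of piRNA 5' ends was 1.35 in the left cluster alone, and 1.16 and 1.22 without a replicate. With the stronger part of the pooled list it was 1.10, with an interval (0.97 to 1.24) that includes 1. With overlapping 5' ends counted once, also chosen later, it was 1.15. The motif difference was 1.64 points in the central 100 bp, and 3.49 and 4.02 without a replicate. For the single clusters and the central window the cause was not tested. The depth of the libraries is unknown, and the intervals cover the counting of peaks, genes and windows only.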

Other observations

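The ends of chromosome IV had the most pooled peaks per Mb of its windows of 0.5 Mb. The stretch from 17 Mb to the chromosome's end, which includes the last bases of the right cluster, held 92 pooled peaks and 502 piRNA genes. The first 0.5 Mb held 84 pooled peaks and 2 piRNA genes. The other windows outside the clusters held 28 to 73 pooled peaks.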
